A study of Homo sapiens with 10 samples.

Results

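This report describes 10 genes whose array values were higher in microvesicles than in the parent cells, in K562, a human chronic myeloid leukaemia line. They are GALR3, WNT6, TMEFF2, CYP4F12, A4GALT, SPDEF, ZNF703, ZFTA, ASB1 and ARHGAP33, out of 19775 genes measured. All of their probe sets were taken by gene symbol, 25 of 54613. A probe set is the group of short probes that reads 1 stretch of a transcript. The genes had been picked for a large difference in this same comparison, so the differences between microvesicles and cells are given for them as a description, without a test. RNA from 5 preparations of untreated K562 cells and 5 of their microvesicles was hybridised to Affymetrix HG-U133 Plus 2.0 arrays, with 1 column of values per array. Both groups come from 1 line, no other genotype or treatment is named, and the labels do not say whether equal numbers mark shared cultures. Values are on the log2 scale after RMA, which subtracts background and gives all arrays a like intensity distribution. The median of an array was 4.08 to 4.12 in cells and 4.22 to 4.28 in microvesicles, and the highest value of any array was 14.1. Values carry no detection call. How many vesicles carry an RNA and how much each holds cannot be told apart.

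Microvesicles bud from the plasma membrane and enclose RNA of the parent cell, often in fragments. The 10 genes belong to no common pathway. GALR3, WNT6 and TMEFF2 act at the cell surface, CYP4F12 and A4GALT are membrane-bound enzymes, SPDEF, ZNF703 and ZFTA act in the nucleus on transcription, and ASB1 and ARHGAP33 regulate protein turnover and small GTPases. Several are best known from epithelium or brain rather than from blood cells. A4GALT is also known in red cells, where its product makes the Pk and P1 blood group antigens.

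The stretches upstream of the gene starts differed widely among these genes. The next 2 are shown because they mark the ends of that spread among genes with 1 window. RefSeq windows (GRCh38.p14) were matched for 6 of the 10 genes, WNT6, TMEFF2, A4GALT, SPDEF, ZFTA and ASB1, with 7 windows in all since A4GALT has 2. GALR3, CYP4F12, ZNF703 and ARHGAP33 had no entry. Among genes with 1 window, WNT6 had the most CpG dinucleotides in the 250 bases before its start and SPDEF the fewest. Each sequence runs 5′ to 3′ on the strand of its gene, with every CpG in capitals. WNT6 lies on the plus strand at chr2:218859555-218859804 and SPDEF on the minus strand at chr6:34556330-34556579.
WNT6: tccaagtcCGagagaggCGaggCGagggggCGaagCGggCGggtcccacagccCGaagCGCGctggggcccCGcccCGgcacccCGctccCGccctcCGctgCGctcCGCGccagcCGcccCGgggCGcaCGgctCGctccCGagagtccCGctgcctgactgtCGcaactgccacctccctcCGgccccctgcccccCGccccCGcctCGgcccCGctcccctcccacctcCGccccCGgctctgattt
SPDEF: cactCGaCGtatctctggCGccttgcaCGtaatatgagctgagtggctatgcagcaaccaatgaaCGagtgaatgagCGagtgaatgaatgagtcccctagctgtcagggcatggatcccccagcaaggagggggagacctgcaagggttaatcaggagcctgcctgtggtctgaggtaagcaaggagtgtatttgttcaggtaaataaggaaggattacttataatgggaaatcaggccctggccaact

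The WNT6 window held 32 CpG and the SPDEF window 6, against a median of 16 (quartiles 5 and 25) over 22199 windows of protein-coding genes. ZFTA and ASB1 had 26 each, TMEFF2 had 18, and the 2 windows of A4GALT had 33 and 5. The 7 windows had a median of 26, and 5 of them lay above the median of all windows. The letters GGGCGG (either strand) occurred in 5 of the 7 windows and in 53.7% of all windows, and CCAAT (either strand) in 3 and in 32.7%. AGATAA or TGATAA, which are forms of the GATA motif, were in 0 of the 7 and in 11.2% of all windows on either strand, and TATAAA was in 0 and in 9% of them. AGATAA and TGATAA were counted as 1 motif, and the other motifs separately. These matches describe sequence only.

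**Figure D1:**
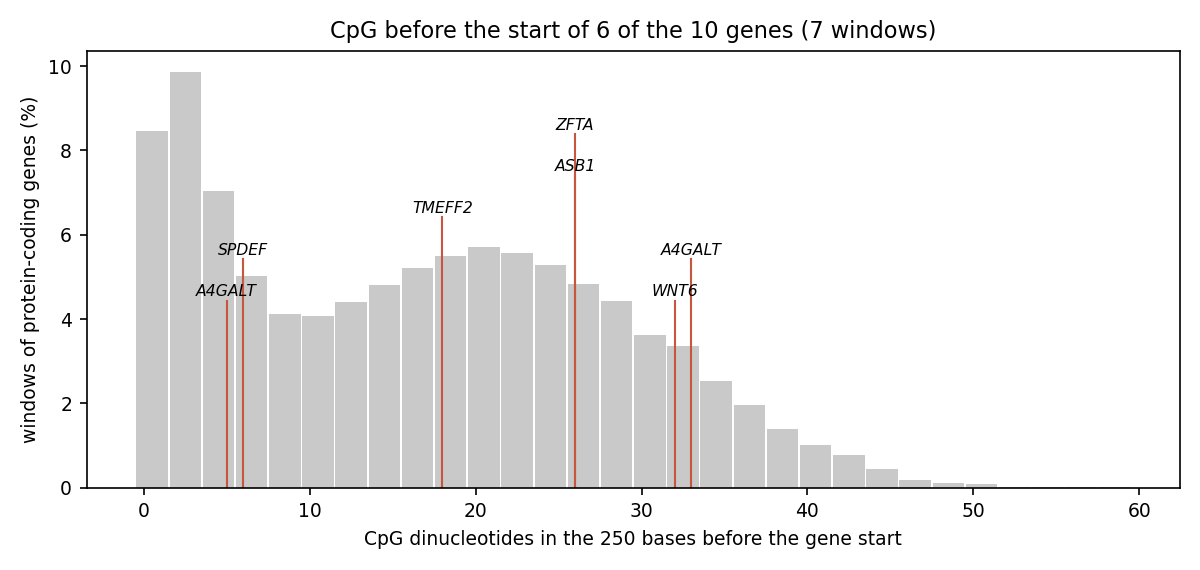
Grey bars give the percentage of 22199 protein-coding gene windows (y axis) by their number of CpG dinucleotides in the 250 bases before the gene start (x axis), and red lines mark the 7 windows of 6 of the chosen genes. SPDEF (6) and 1 window of A4GALT (5) sit in the CpG-poor part, and WNT6 (32) and the other A4GALT window (33) near the upper end.

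GALR3 encodes a G protein-coupled receptor for the neuropeptide galanin, and its level showed the largest difference of the 10 genes. The 5 cell arrays read 5.40, 5.34, 5.37, 5.36 and 5.34, and the 5 microvesicle arrays 8.23, 8.92, 9.11, 8.80 and 8.43. The groups did not overlap, and 2.84 lay between the highest cell array and the lowest microvesicle array. The difference was 3.34 ± 0.18 (microvesicles minus cells ± SE, n = 5 each), or 10.1-fold. Among all genes read by their brightest probe set, this difference ranked 2. GALR3 has 1 probe set in the table (33579_i_at), so the difference rests on it alone and could not be compared with another probe set of the gene.

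The other genes of the galanin system did not share this size. Of 6 measured relatives 4 rose and 2 fell at a limma adjusted p under 0.05, whereas 35.5% of all 19775 genes rose and 31.2% fell. The ligand gene GAL fell by 1.11 ± 0.41 from 8.04 in cells (adjusted p = 0.0284) and stood at -0.25 after loess scaling, where it did not pass (adjusted p = 0.608). The related kisspeptin receptor KISS1R fell by 2.18 ± 0.22 (adjusted p = 3.81e-06). The ligand genes GALP and SPX rose by 1.48 ± 0.30 and 0.77 ± 0.16, from 2.16 and 3.40 in cells. The sister receptors GALR1 and GALR2, named here after their values were seen, changed by 0.65 ± 0.18 and 0.63 ± 0.22 from levels of 2.09 and 2.51 and stood at 0.10 and 0.09 after loess. GALP, SPX, GALR1 and GALR2 all lay below the array median in cells, where a value may be background.

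WNT6 encodes a secreted ligand of Frizzled receptors. Its brightest probe set (71933_at) read 5.95, 5.90, 6.04, 5.97 and 5.92 in cells and 8.0, 9.26, 8.88, 9.12 and 9.02 in microvesicles, without overlap. Microvesicles replicate 1 was the lowest of its group by a wide step, yet still 1.96 above the highest cell array. The difference was 2.90 ± 0.22, or 7.47-fold. The other 3 WNT6 probe sets had means of 3.05 to 3.60 in cells, under the array median, and differed by 0.74 ± 0.18, 0.28 ± 0.36 and 0.17 ± 0.15. Only the first of these 3 had groups that did not overlap.

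Most WNT ligand genes rose. Of the 16 measured beside WNT6, 11 rose and 0 fell (0 also at an unadjusted limma p under 0.05), beside 35.5% and 31.2% of all genes, with a median change of 1.0 against 0.20 over all genes. After loess 9 rose and 0 fell, beside 26.0% and 18.8% of all genes, and the median was 0.70. WNT11 rose by 1.57 ± 0.27 (adjusted p = 0.000304) and WNT2 by 1.25 ± 0.26 (adjusted p = 0.0012). None of the 16 reached the difference of WNT6, and 11 of them had cell means under the array median. WNT10A, the gene next to WNT6 on the reference assembly, rose by 0.98 ± 0.25 from 4.22 to 5.19.

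Genes that secrete or receive WNT proteins moved in both directions. Of 15 measured 3 rose and 5 fell, beside 35.5% and 31.2% of all genes, with a median change of -0.37. After loess 0 rose and 3 fell, beside 26.0% and 18.8% of all genes, and the median was -0.23. The co-receptor gene LRP6 fell by 2.99 ± 0.28 and the receptor gene FZD3 by 2.47 ± 0.26, while FZD6 and the WNT carrier gene WLS rose by 1.18 ± 0.41 and 0.88 ± 0.32 from cell means of 2.05 and 2.38. Among 9 targets of the pathway 4 rose and 2 fell (2 and 2 after loess), beside the same shares of all genes. NOTUM, which encodes an enzyme that inactivates WNT proteins, rose by 1.41 ± 0.18, and SP5 rose by 0.84 ± 0.27 but stood at 0.35 after loess (adjusted p = 0.345). ZNRF3, a ubiquitin ligase gene that limits receptor levels, fell by 2.29 ± 0.28, and LEF1 fell by 1.51 ± 0.20 in its brightest probe set and stood at -0.27 (adjusted p = 0.134) as a mean of its 3 probe sets.

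TMEFF2 encodes a transmembrane protein with follistatin-like and EGF-like domains, expressed mainly in brain and prostate. Its brightest probe set (224321_at) read 5.09, 5.27, 5.27, 5.17 and 5.58 in cells and 9.40, 7.16, 5.99, 6.33 and 9.56 in microvesicles. The groups did not overlap, but replicates 1 and 5 were over 2 log2 units above the other microvesicle arrays, and replicate 3 lay 0.41 above the highest cell array. The SD of 1.7 in microvesicles was the largest of the 10 genes, and the difference of 2.41 ± 0.59 ranged from 1.95 to 2.84 when 1 array was left out. The other 2 probe sets differed by 0.70 ± 0.15, from 1.92 in cells, and by 0.13 ± 0.21, from 2.52 in cells. Among 11 other genes with follistatin domains 4 rose and 2 fell, beside 35.5% and 31.2% of all genes. SPOCK2 and FSTL3 rose by 0.92 ± 0.30 and 0.76 ± 0.19, while the activin antagonist gene FST fell by 1.78 ± 0.25 and FSTL5 by 1.63 ± 0.23.

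**Figure D2:**
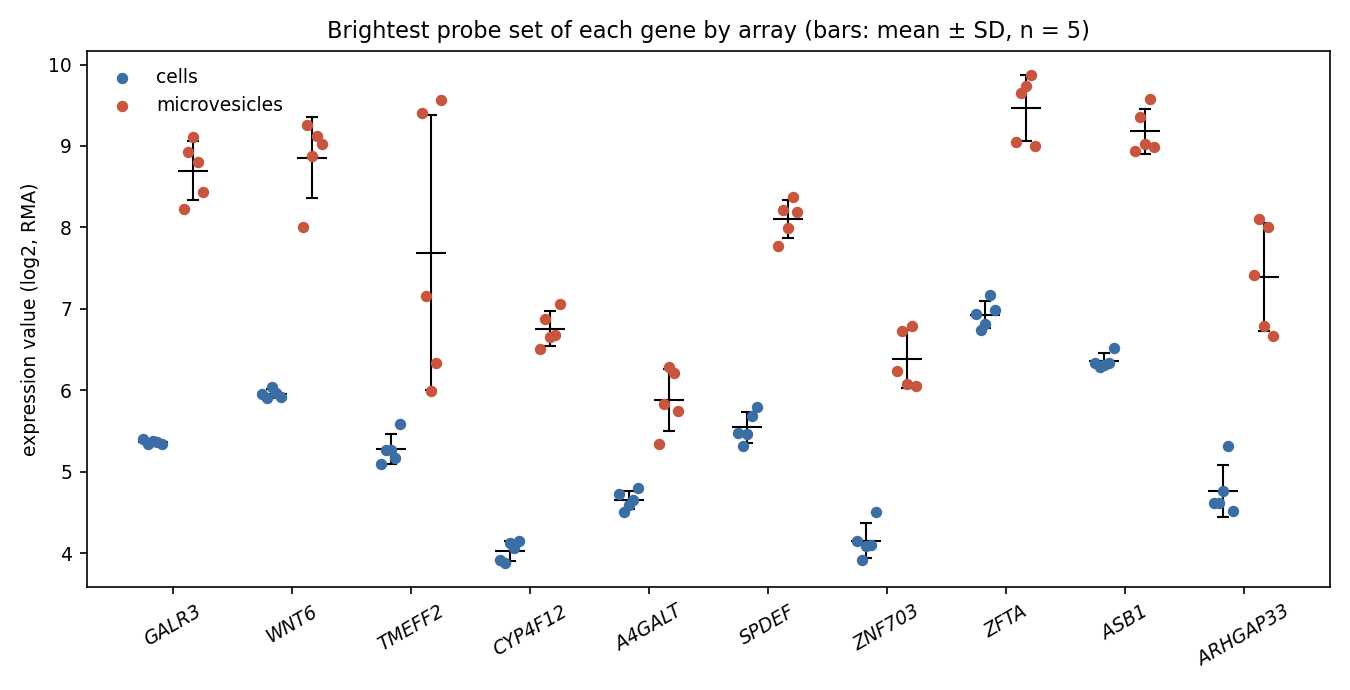
Points are the log2 RMA values (y axis) of the brightest probe set of each gene in 5 cell arrays (blue) and 5 microvesicle arrays (red), and bars give mean ± SD. The groups are separate for all 10 genes as chosen. The spread in microvesicles is widest for TMEFF2 (5.99 to 9.56), and the difference of means is smallest for A4GALT (4.66 to 5.88).

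CYP4F12 encodes a cytochrome P450 that hydroxylates fatty acids and some drugs. It is read by 1 probe set, with 3.92, 3.88, 4.12, 4.06 and 4.15 in cells and 6.51, 6.88, 6.65, 6.68 and 7.06 in microvesicles. The cell values lay around the array median and the microvesicle values all lay far above it. The SD of 0.22 in microvesicles was the smallest of the 10 genes, and the difference was 2.73 ± 0.16, or 6.64-fold. Of 10 other CYP4 genes 8 rose and 1 fell, beside 35.5% and 31.2% of all genes, with a median change of 0.94. After loess 5 rose and 1 fell, beside 26.0% and 18.8% of all genes, and the median was 0.64. Of these 10 genes 8 had cell means under the array median, and 4 rose when a filter on dim genes was used. CYP4F8 rose by 1.87 ± 0.25 and CYP4Z1 by 1.34 ± 0.31, from 2.52 and 2.03 in cells. CYP4V2, which encodes a fatty acid hydroxylase known from the eye, fell by 1.12 ± 0.23 from 6.02. CYP4F3, a neighbour of CYP4F12 on the assembly, did not pass (0.27 ± 0.24, adjusted p = 0.325).

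A4GALT encodes the galactosyltransferase that makes globotriaosylceramide, the Pk antigen, and showed the smallest difference. Its 1 probe set read 4.72, 4.51, 4.59, 4.65 and 4.80 in cells and 5.34, 5.83, 6.28, 6.21 and 5.74 in microvesicles. The groups did not overlap, with a step of 0.55 between them. The difference was 1.23 ± 0.19, or 2.34-fold, and ranked 1013 among 19775 genes, so A4GALT does not belong among the largest differences by this measure. ZNF703 ranked 32, and the other 8 genes between 2 and 17.

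Enzymes that come before A4GALT in the same pathway were lower in microvesicles. UGCG, whose product adds the first sugar to ceramide, fell by 3.12 ± 0.20 from 9.12 to 6.0 (adjusted p = 1.73e-07, -2.27 after loess). B4GALT5, the main lactosylceramide synthase gene, fell by 2.58 ± 0.29 from 8.16 to 5.58 (adjusted p = 1.04e-05, -1.72 after loess). B3GALNT1, whose product extends globotriaosylceramide to globoside, rose by 1.22 ± 0.17, but from 2.07 in cells to 3.30, both under the array medians. B3GALT5 rose by 1.01 ± 0.27 from 4.04. In all, 2 of 11 genes of glycosphingolipid synthesis rose and 4 fell, beside 35.5% and 31.2% of all genes. After loess 5 rose and 4 fell, beside 26.0% and 18.8%.

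SPDEF encodes an ETS transcription factor of prostate, airway and gut epithelium. Its brightest probe set (213441_x_at) read 5.47, 5.32, 5.46, 5.68 and 5.79 in cells and 7.77, 8.21, 7.99, 8.37 and 8.19 in microvesicles, without overlap. The difference was 2.56 ± 0.17, or 5.90-fold. All 5 SPDEF probe sets had groups that did not overlap, with differences from 1.10 ± 0.19 to 2.56 ± 0.17. All 5 carry the suffix _x_at, which the manufacturer gives to probe sets with probes that may also match other transcripts. Over all 4207 probe sets with this suffix the median difference was 0.16, and 0.594% differed by at least 2 upward, against 0.225% of all probe sets.

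ETS factors other than SPDEF moved in both directions. Of 26 measured 9 rose and 13 fell, beside 35.5% and 31.2% of all genes, with a median change of -0.50. After loess 7 rose and 8 fell, beside 26.0% and 18.8% of all genes, and the median was 0.05. ETV7 rose by 1.65 ± 0.27 and the neural factor gene FEV by 1.64 ± 0.17, from cell means of 3.62 and 3.97. ELK3 and GABPA, the latter a regulator of mitochondrial genes, fell by 2.49 ± 0.20 and 2.20 ± 0.30.

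ZNF703 encodes a zinc finger co-repressor that is amplified in some breast cancers. Its brightest probe set (222760_at) read 4.15, 3.92, 4.09, 4.10 and 4.50 in cells and 6.24, 6.73, 6.08, 6.79 and 6.05 in microvesicles, a difference of 2.22 ± 0.20. The other probe set differed by 1.57 ± 0.33, with microvesicles replicate 5 at 3.15 and the highest cell array at 3.14. Its groups were thus separated by 0.02. The closest paralogue, ZNF503, fell by 1.05 ± 0.36 in its brightest probe set and changed by 0.22 (adjusted p = 0.343) as a mean of its 4 probe sets. Of the TLE co-repressor genes with which such factors act, TLE2 and TLE1 rose by 0.98 ± 0.32 and 0.61 ± 0.18, and TLE3 fell by 1.0 ± 0.20. After loess TLE1 and TLE3 did not pass (0.37 and -0.41), and TLE2 stood at 1.75. Over ZNF503 and the TLE genes 2 rose and 2 fell of 6, beside 35.5% and 31.2% of all genes.

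ZFTA encodes a zinc finger protein known mainly from its fusions with RELA in ependymoma. Probe set 218641_at read 6.93, 6.74, 6.81, 7.17 and 6.99 in cells and 9.05, 9.65, 9.74, 9.87 and 9.0 in microvesicles. The difference was 2.54 ± 0.20, and the groups did not overlap. The other probe set, from 3.60 in cells, differed by 1.12 ± 0.23 and did not overlap either. RELA itself, named here after its values were seen, fell by 0.92 ± 0.18 and stood at -0.08 after loess. Of 8 NF-kB subunit and inhibitor genes 2 rose and 4 fell, beside 35.5% and 31.2% of all genes. After loess 1 rose and 1 fell, beside 26.0% and 18.8%. NFKBIB and RELB rose by 0.60 ± 0.22 and 0.54 ± 0.21, while NFKBIE fell by 1.48 ± 0.41 and REL fell by 1.22 ± 0.19. After loess RELB and REL did not pass (0.20 and -0.42), and NFKBIB stood at 1.37.

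ASB1 encodes an ankyrin repeat protein with a SOCS box, the substrate receptor of a cullin-5 ubiquitin ligase. Its brightest probe set (212818_s_at) read 6.34, 6.29, 6.31, 6.34 and 6.52 in cells and 8.94, 9.36, 9.03, 9.58 and 8.99 in microvesicles, a difference of 2.82 ± 0.17, or 7.06-fold. Probe set 212819_at differed by 1.43 ± 0.34 and its groups overlapped, since microvesicles replicate 1 read 4.15 and the cells reached 4.53. Probe set 238991_at, at 2.80 in cells, differed by 0.31 ± 0.22 and also overlapped. The scaffold gene of the ligase, CUL5, fell by 2.24 ± 0.19 from 9.20 (adjusted p = 1.09e-06, -1.45 after loess). Over other ASB genes and their ligase partners 11 of 20 rose and 5 fell, beside 35.5% and 31.2% of all genes. After loess 6 rose and 2 fell, beside 26.0% and 18.8%. ASB2 and ASB10 rose by 1.80 ± 0.22 and 1.44 ± 0.20, and ASB7 fell by 1.11 ± 0.27 but did not pass after loess (-0.42).

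ARHGAP33 encodes a GTPase-activating protein with a sorting nexin domain that is known from neurons. Its brightest probe set (215256_x_at) read 4.62, 4.61, 4.76, 5.32 and 4.52 in cells and 7.42, 8.10, 6.79, 8.0 and 6.66 in microvesicles. The groups did not overlap, and the difference was 2.63 ± 0.29, or 6.18-fold. This probe set also carries the suffix _x_at. The other 2 probe sets differed by 0.77 ± 0.21 and 0.59 ± 0.26, and in both the groups overlapped. In the second, microvesicles replicate 2 read 3.46, below all cell arrays, while the other 4 microvesicle arrays were above them. Of 30 other ARHGAP genes 11 rose and 12 fell, beside 35.5% and 31.2% of all genes, with a median change of 0.05. ARHGAP30 and ARHGAP26 rose by 1.11 ± 0.26 and 1.07 ± 0.24, while ARHGAP12 fell by 2.21 ± 0.17 and ARHGAP5 fell by 1.84 ± 0.29. ARHGAP26 did not pass after loess (0.62, adjusted p = 0.0639).

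**Figure D3:**
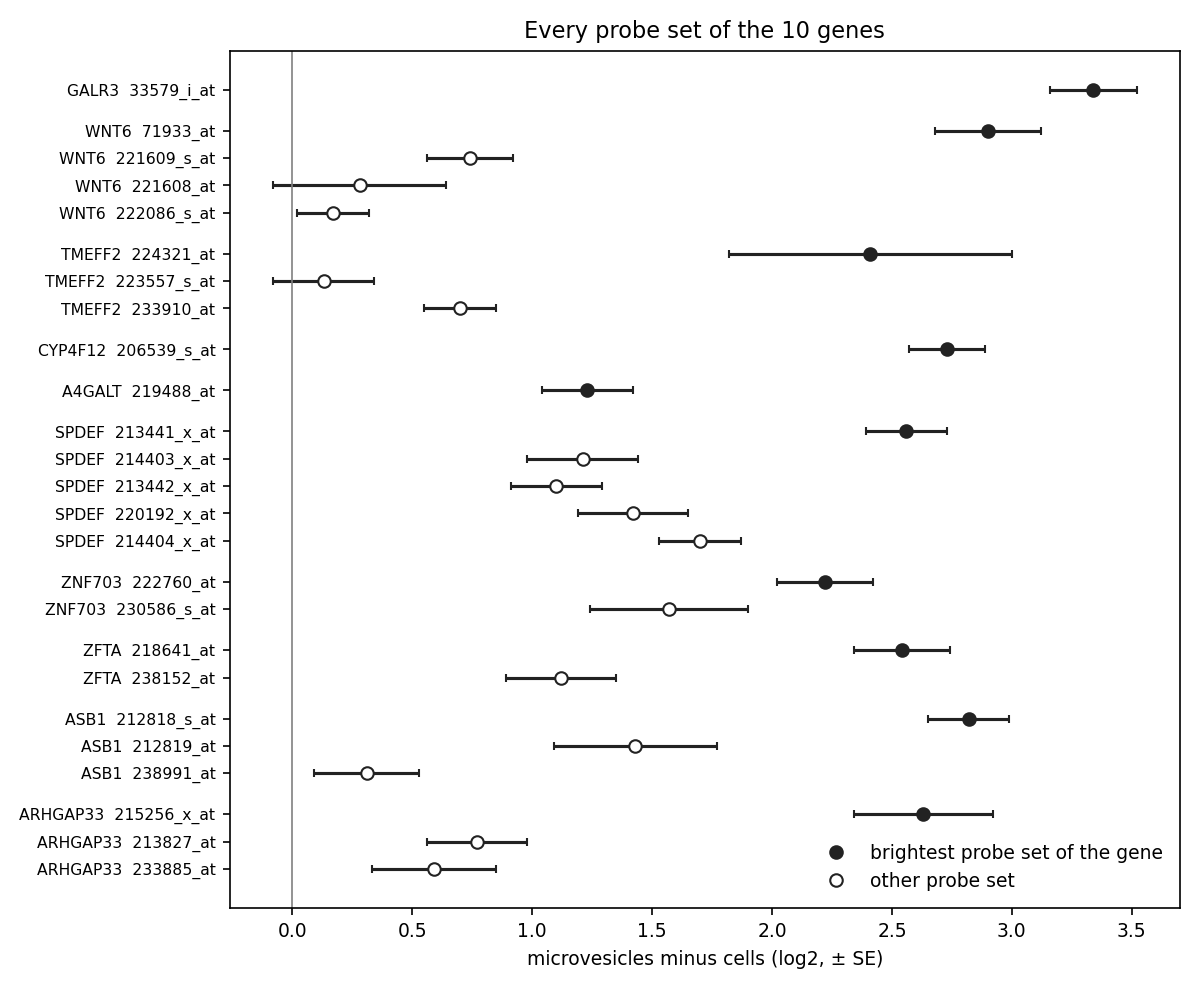
Points are the difference between microvesicles and cells (x axis, log2, ± SE, n = 5 each) for each of the 25 probe sets, filled for the brightest probe set of a gene and open for the others. Filled points lie at 2.22 or above except for A4GALT (1.23), while the open points lie between 0.13 and 1.70.

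Within a gene the probe sets differed in size far more than in sign. All 25 probe sets had a positive difference in the deposited values, as did 59.9% of all probe sets. A difference of at least 2 was found in 9 of the 25 and in 0.225% of all probe sets. All 9 were the brightest of their gene by the mean over the 10 arrays, a choice that a high microvesicle value helps to make. A difference of at least 1 was found in 17 of the 25 and in 9.96% of all probe sets. In 18 of 25 every microvesicle array was above every cell array, which held for 24.0% of all probe sets, while in 22.0% every microvesicle array was below every cell array. These shares are printed side by side only, since the choice of genes used this comparison. The 10 brightest probe sets had a median difference of 2.60 and the 15 others of 0.77, against 0.27 over all probe sets, and this contrast is partly built in for the same reason. Of the 7 genes with several probe sets, 5 had the same brightest probe set in cells alone. In cells SPDEF was brightest in 214403_x_at, which differed by 1.21 ± 0.23, and ARHGAP33 in 213827_at, which differed by 0.77 ± 0.21. Of the 15 others, 7 differed by at least 1, 4 of them in SPDEF, and 0 by at least 2.

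Differences over all probe sets varied with the level, and the chosen probe sets are set beside others of their level here. Probe sets with a mean of 5 to 6 over the 10 arrays had a median difference of -0.43, those of 6 to 7 of -1.0 and those of 7 to 8 of -1.01. The chosen genes lay at these levels, with 3 in each class and ZFTA in the class of 8 to 9, where the median was -0.79. In the class of 7 to 8, 0.663% of 3015 probe sets differed by 2 or more upward. Dimmer probe sets, with means of 3 to 4 and of 4 to 5, had positive median differences of 0.48 and 0.25. In cells 8 of the 10 brightest probe sets were above the array median on all 5 arrays, and CYP4F12 and ZNF703 on 2 of 5. In microvesicles all 10 were above it on all 5 arrays.

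Scaling changed the size of the differences but not their sign for the brightest probe sets. With loess by level they ran from 1.45 (A4GALT) to 4.21 (GALR3), with a second quantile normalization from 1.58 to 3.79, and with arrays centred on their median from 1.07 to 3.18. GALR3 was highest and A4GALT lowest each time. The median over all probe sets was 0.27 as deposited, 0.03 after loess, 0.12 after quantile normalization and 0.11 after centring. For 4 of the 15 other probe sets the sign was not stable. WNT6 222086_s_at stood at -0.33 after loess and -0.25 after quantile normalization, TMEFF2 223557_s_at at -0.43 and -0.31, and ASB1 238991_at at -0.21 and -0.12. WNT6 221608_at stood at -0.08 after loess and at 0.07 after quantile normalization.

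**Figure D4:**
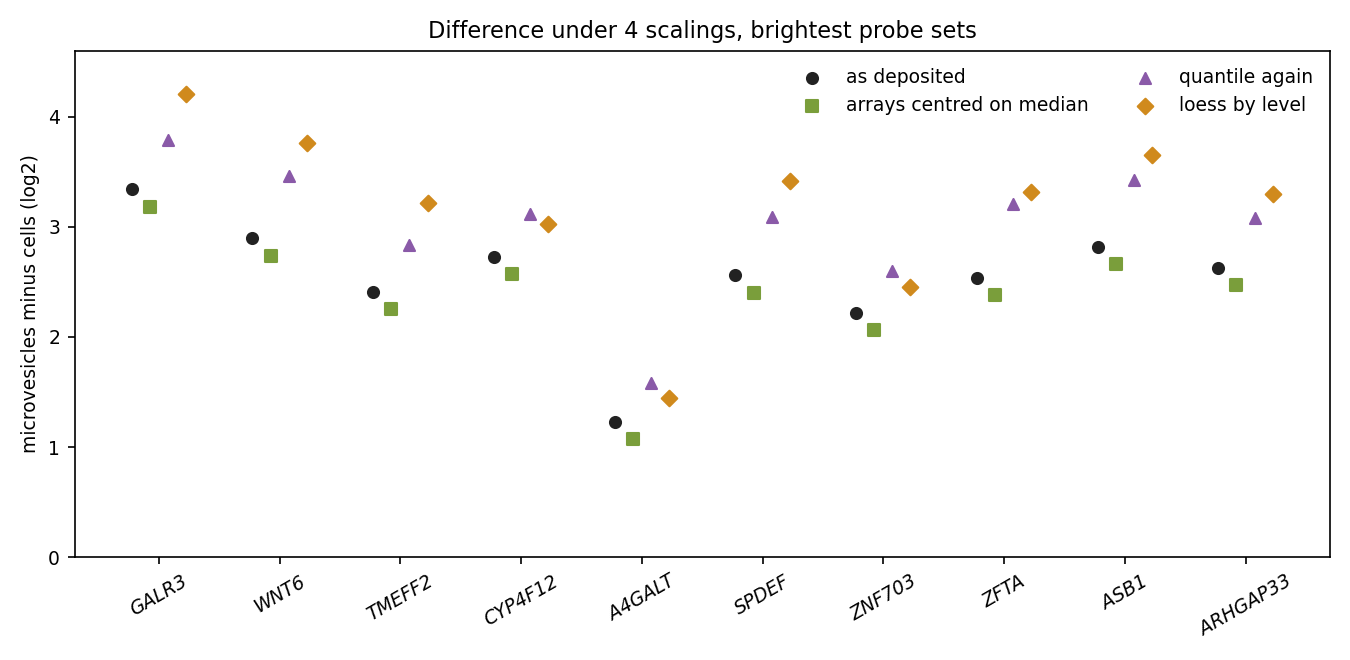
Markers give the difference between microvesicles and cells (y axis, log2) for the brightest probe set of each gene as deposited and under 3 other scalings. All values are above 0, and loess or quantile scaling gave the larger values for every gene (GALR3 3.34 as deposited and 4.21 after loess).

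The microvesicle arrays varied more than the cell arrays for all 10 brightest probe sets, which was also so for 94.0% of all probe sets. Their median SD was 0.14 in cells and 0.37 in microvesicles, against 0.15 and 0.46 over all probe sets. The order of the arrays within each group is given next. Microvesicles replicate 1 was the lowest of its group for 6 genes (GALR3, WNT6, CYP4F12, A4GALT, SPDEF and ASB1) and the highest for 0. Replicate 5 was the lowest for ZNF703, ZFTA and ARHGAP33, and replicate 3 for TMEFF2. Replicate 4 was the highest for SPDEF, ZNF703, ZFTA and ASB1. For comparison, 4861 probe sets did not overlap and were at least 1 higher in microvesicles. Replicate 1 was the lowest in 26% of them and the highest in 12.4%. Replicate 5 was the lowest in 18.7% and replicate 3 in 23.8%, and replicate 4 was the highest in 25%. In cells, replicate 2 was the lowest for 8 of the 10 genes, against 31.1% of those probe sets, and replicate 5 the highest for 6, against 21.3%. Of the 10 genes TMEFF2 alone had its highest microvesicle values in replicates 1 and 5.

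In the deposited values no relative of these genes reached a difference of 2, which every chosen gene but A4GALT did. The genes were picked for large differences, so this contrast is largely built in. A4GALT (1.23) was exceeded by some relatives of other chosen genes, such as CYP4F8 (1.87). The largest rise in its own list was that of B3GALNT1 (1.22). Of 168 genes in the 12 lists of families and partners 71 rose (42.3%) and 52 fell (31.0%), beside 35.5% and 31.2% of all genes. With loess 48 rose (28.6%) and 31 fell (18.5%), beside 26.0% and 18.8% of all genes. With arrays centred on their median 51 rose (30.4%) and 54 fell (32.1%), beside 25.7% and 34.7%. A change of at least 1 upward was found in 25, and of at least 2 in 0 (1 after loess, ASB10 at 2.02). Over all probe sets, rather than genes, 9.96% and 0.225% changed by as much in the deposited values. The median change of the relatives was 0.28, against 0.20 over all genes.

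**Figure D5:**
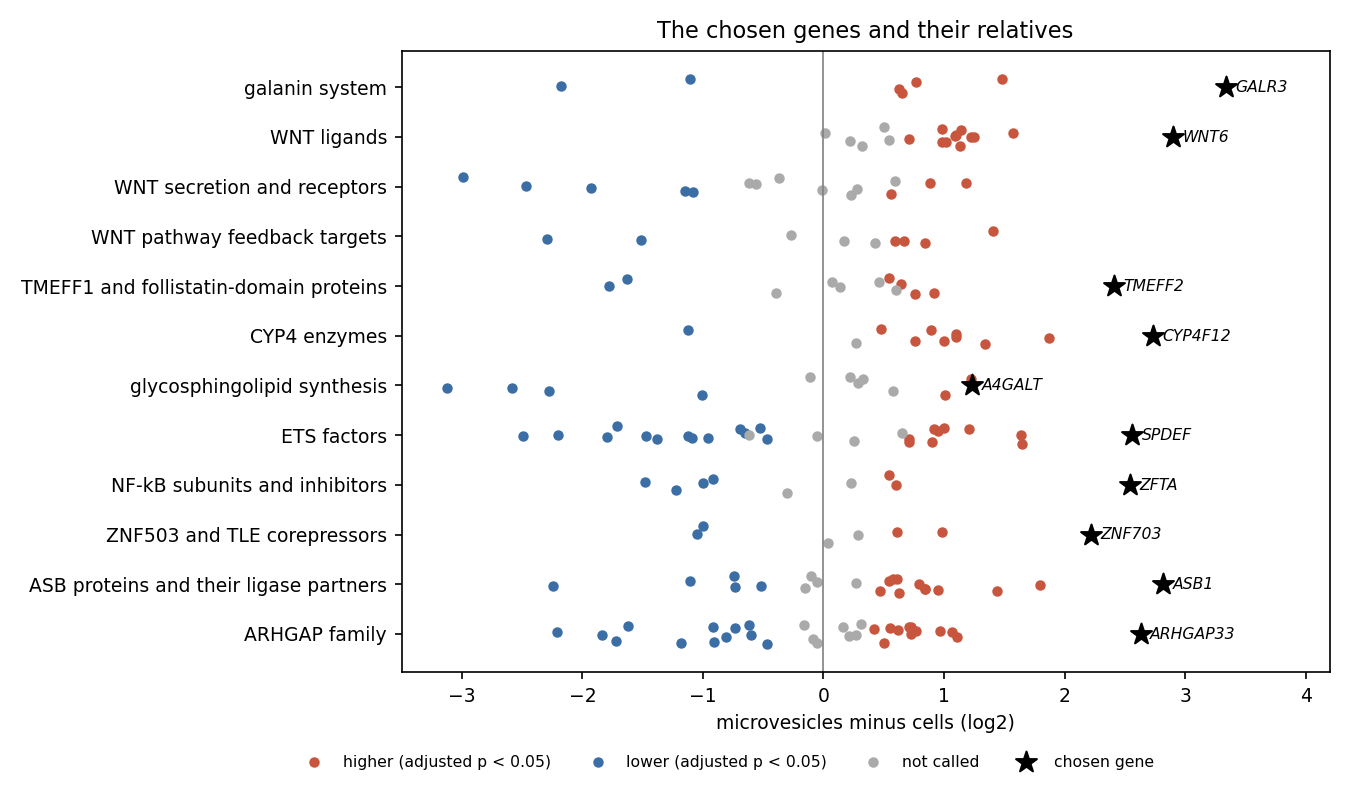
Each row is a list of related genes, and each point a gene's difference between microvesicles and cells (x axis, log2, brightest probe set). Red points rose and blue points fell at a limma adjusted p under 0.05, grey points did not pass, and stars mark the chosen genes, which were not tested here. The A4GALT star (1.23) lies beside B3GALNT1 (1.22), each other star lies clearly to the right of all points of its row, and WNT11 (1.57) is the nearest ligand to WNT6 (2.90).

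Genes next to the chosen ones on the reference assembly did not reach an upward difference of 2 either, which 0.225% of all probe sets did. The nearest measured gene on each side gave 20 neighbours, of which 9 rose, 6 fell and 5 did not pass, beside 35.5% and 31.2% of all genes, with a median change of 0.40 and 0 at 2 or above. After loess 6 neighbours rose and 4 fell, beside 26.0% and 18.8% of all genes. GCAT and ANKRD54, on the sides of GALR3, changed by 0.23 ± 0.15 (adjusted p = 0.181) and -0.56 ± 0.20 (adjusted p = 0.0255, 0.12 after loess). GCAT passed as higher after loess (1.07, limma adjusted p = 0.000114) and after quantile normalization (1.1, limma adjusted p = 0.000149). The largest rise was that of OR10H2, an olfactory receptor gene beside CYP4F12, with 1.56 ± 0.22 from 2.68 in cells. RTN3, beside ZFTA, fell by 1.63 ± 0.23, and CAVIN2, beside TMEFF2, fell by 1.53 ± 0.29.

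Each gene was also matched to the gene with the most similar profile, by the root mean square difference between centred log2 values over the 10 arrays. Such a profile includes the gap between the groups for which the genes were picked. Genes with a like gap therefore tend to come nearest by construction, and the matches are a description only. For GALR3 and WNT6 this was the noncoding RNA gene LINC01134 (0.25 and 0.24), which stood at 5.33 in cells and 8.48 in microvesicles. For ZFTA and ASB1 it was FAM168B (0.18 each), at 7.98 and 10.75. The profile nearest to CYP4F12 was that of SPDEF (0.18), and that nearest to SPDEF was NAT8L (0.17). A4GALT lay closest to SIGLEC7 (0.072), ZNF703 to GRIK5 (0.15) and ARHGAP33 to ADAMTS10 (0.33). TMEFF2 had the least similar partner, DLX5 (0.60).

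Some measures of RNA and of cell identity moved with the groups, and their part in the differences above was not tested. Control probe sets at the 3′ end of ACTB read above those at its 5′ end by 2.39 ± 0.15 on the cell arrays and by 3.12 ± 0.34 on the microvesicle arrays (mean ± SD, n = 5, 2-sided exact permutation p = 0.00794, adjusted over 2 measures 0.0159). For GAPDH this gap was 0.45 ± 0.064 and 0.62 ± 0.13 (exact permutation p = 0.0159, adjusted 0.0159). Of the K562 markers GATA1, TAL1, LMO2, KLF1, NFE2, TFRC, HBE1, HBZ, EPOR, BCR and ABL1, all 11 measured had cell means above the array median, and 1 rose (EPOR, 0.79 ± 0.27) and 5 fell (3 and 1 after loess), among them TFRC, which fell by 1.63 ± 0.17. EPOR did not pass with arrays centred on their median (adjusted p = 0.0582) or as a mean of its 5 probe sets (0.04, adjusted p = 0.825). The marker counts here stand beside 35.5% of all genes that rose and 31.2% that fell (26.0% and 18.8% after loess). Of 10 neuronal markers 7 rose and 0 fell (0 at an unadjusted limma p under 0.05 too), led by ELAVL4 (1.77 ± 0.30) and MAP2 (1.35 ± 0.23), and after loess 6 rose. However, 6 of the 10 had cell means under the array median, where a value may be background. ELAVL4 stood at 2.86 in cells and changed by 0.80 as a mean of its 4 probe sets. MAP2 went from 2.33 in cells to 3.68 in microvesicles. The mean level of the neuronal markers per array ran from 4.02 to 4.11 in cells and from 4.47 to 5.03 in microvesicles. Of 9 epithelial markers 2 rose (ESRP1 and CDH1) and 2 fell (EPCAM and KRT8), with array means of 5.78 to 6.01 and 5.50 to 5.89. After loess ESRP1 and CDH1 did not pass (0.36 and 0.07, adjusted p = 0.206 and 0.782). Of 8 lymphocyte and monocyte markers 5 rose, led by CD3E and MS4A1, and 1 fell (LYZ), with array means of 4.63 to 5.14 and 4.63 to 5.07. After loess 2 rose, and MS4A1 did not pass (0.47, adjusted p = 0.117).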

How the data were processed

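The table as deposited holds log2 values, 1 column for each of 10 arrays, which RMA produced, per the submitters' processing notes. The version and settings of RMA were not given in the sources used here. Of 54630 probe sets 17 are controls, 41091 have 1 gene in the platform annotation, 1801 several and 11721 none listed, and 41043 of those with 1 gene were named through their gene number. A gene was read by its probe set with the highest mean over the 10 arrays. Microvesicles were compared with cells by limma 3.58.1 (lmFit and eBayes, R 4.3.3), once over all 54613 probe sets for the 10 genes and once over 19775 genes for their relatives, 2-sided, with Benjamini-Hochberg adjustment over all genes and a threshold of 0.05. P-values measure the spread between preparations, which may be technical, and the number of arrays limits the precision. No filter on dim probe sets was used. The fit was tested on simulated data with equal spread in both groups and 200 changed genes. In the data here the microvesicle arrays varied more and far more genes were called, a setting the simulation did not cover. The chosen genes and all lists were picked with earlier results of these data known.

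All probe sets of the 10 genes were named, with at most the 2 largest rises and the 2 largest falls of every list, the K562 markers and the nearest profile of each gene. The lists hold the galanin system, WNT ligands, WNT secretion and receptors, WNT pathway targets, follistatin-domain proteins, CYP4 enzymes, glycosphingolipid synthesis, ETS factors, NF-kB genes, ZNF503 and TLE genes, ASB proteins with partners, ARHGAP genes, and markers of K562, epithelium, neurons, and lymphocytes and monocytes. Neighbours were chosen for analysis after values had been seen. Alternatives were the replicate block, centring on the median, quantile normalization again, loess by level, averaging the probe sets of a gene, testing probe sets singly, a filter on dim genes, a variance trend with robust fitting, and leaving out each array. Replicate numbers were not treated as pairs in the main fit. Same-numbered arrays had correlations of their deviations from -0.03 to 0.11, and 1 of 5 pairs was over 0.1. Yet 4 of 5 cell arrays correlated best with their own number, so these values do not settle whether the numbers mark pairs. The replicate block was therefore run as an alternative.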

Additional observations from a re-analysis of the deposited data

Results flagged for a closer look

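In 4 of 54 groups of 5 arrays (the chosen probe sets and the RNA control measures), 1 array stood apart from the rest by Dixon's ratio of gap to range, above the 95% value of 0.71. About 1 in 20 groups does so by chance. In microvesicles these were TMEFF2 223557_s_at, where replicate 5 read 3.46 and the others 2.33 to 2.57 (ratio 0.792), and ARHGAP33 233885_at, where replicate 2 read 3.46 and the others 4.72 to 5.06 (0.786). In cells they were SPDEF 213442_x_at, where replicate 2 read 5.46 (0.823), and ASB1 212818_s_at, where replicate 5 read 6.52 and the others 6.29 to 6.34 (0.772).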

How the results depend on the processing

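The count of chosen probe sets at least 1 higher (17 of 25) was 15 to 17 and that without overlap (18) was 16 to 20 under the alternatives run for each. The brightest probe sets stayed positive in all 140 values recomputed, from 1.07 to 4.21, and 14 moved by more than the larger replicate SD. The rises among relatives (71) came to 47 after quantile normalization and 39 with the filter on dim genes, and the falls (52) to 26 after quantile normalization and 31 after loess. Rises among neighbours (9) came to 5 with centring and falls (6) to 3 after quantile normalization. Over all called genes of the lists, the sign turned for 14 after loess and 13 after quantile normalization, with 0 of these past the threshold in the new direction, and for 7 with the mean of probe sets. Of these 7, ARHGAP1 (0.30) and ARHGAP22 (0.42), named after their values were seen, then passed as higher. Among other genes named in the text, signs turned for ZNF503 (0.22) and TAL1 (0.26) with the mean of probe sets. After quantile normalization and loess they turned for KRT8 (0.39 and 0.34), GATA1 (0.26 and 0.24), LMO2 (0.62 and 0.62), KLF1 (0.32 and 0.30), BCR (0.31 and 0.30) and ABL1 (0.37 and 0.31). They also turned for the neighbours ANKRD54 (0.07 and 0.12) and CYP4F3 (-0.15 and -0.29). LMO2, not called as deposited, then passed as higher (limma adjusted p = 0.0134 and 0.00877). As a mean of its 2 probe sets LMO2 stood at -1.07 (limma adjusted p = 6.47e-05). The causes were not tested. With the replicate block 71 relatives rose and 50 fell, and 4 of 5 cell arrays correlated best with their own number. The ACTB and GAPDH measures passed without each array. Without detection calls, signal over background is unknown for values near or under the array median.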
